A study of Mus musculus with 4 samples.

Results

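The cell type called ILC2 was the largest of 21 types annotated by the authors among cells sorted from mouse liver and lung for ILC2 surface markers, and it is described here by the 136 genes listed as its markers, of 4422 such listings in all. The members were all rows of the deposited marker table whose cluster was ILC2, so that no value was used to choose them, although the table itself lists only genes with a higher average in the type than in the other cells. Wild-type BALB/c mice aged 8 weeks received PBS or recombinant mouse IL-33 (rIL-33, 0.5 µg a day) by intraperitoneal injection on 5 days, and 1 single-cell RNA library was made for each of 4 groups, PBS liver, PBS lung, rIL-33 liver and rIL-33 lung. The sort kept cells negative for lineage markers (CD3e, Ly6G, Ly6c, CD11b, CD45R, TER119 and TCRb) and positive for CD127, Thy1 and ST2, the last being the protein of Il1rl1. The table gives values pooled over all 4 libraries, so neither treatment nor organ was compared here, and no replicate error exists for any share below.

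Group 2 innate lymphoid cells (ILC2s) are tissue-resident lymphocytes without antigen receptors that respond to the epithelial alarmin IL-33 through its receptor ST2. The transcription factors GATA3 and RORα are needed for their development, and on activation they release IL-5, which sustains eosinophils, IL-13, which acts on epithelium and smooth muscle, and amphiregulin, a growth factor of tissue repair. In liver and lung they are known for type 2 inflammation.

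Each listing holds 2 shares of cells above 0, that inside the type and that in all other cells, and the difference between them is given in percentage points. Over the 136 genes the share in ILC2 had a median of 73.65% (from 32.4 to 98.6), and the share in all other cells a median of 46.45% (from 16.6 to 93.2). The median difference was 21.3 points, with a range from -0.7 to 45.8. The 4286 listings of the other 20 types had a median difference of 18.1 points, ranging from -42.5 to 93.8. Within the ILC2 list 37 genes differed by at least 30 points, 8 by at least 40, and 19 by under 10. Because every gene listed for several types gives the same share in all cells, the sizes of the types could be solved by least squares, and ILC2 held 43.2247% ± 0.0133 (least-squares SE over 1045 genes) of the cells, with gdT_TypeI next at 11.7% and the separate type ILC2_2 at 1.78%. The authors tested 2000 features in this table, of which the ILC2 list made up 6.80%, and 1679 genes were listed for at least 1 type, of which it made up 8.10%.

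**Figure D1:**
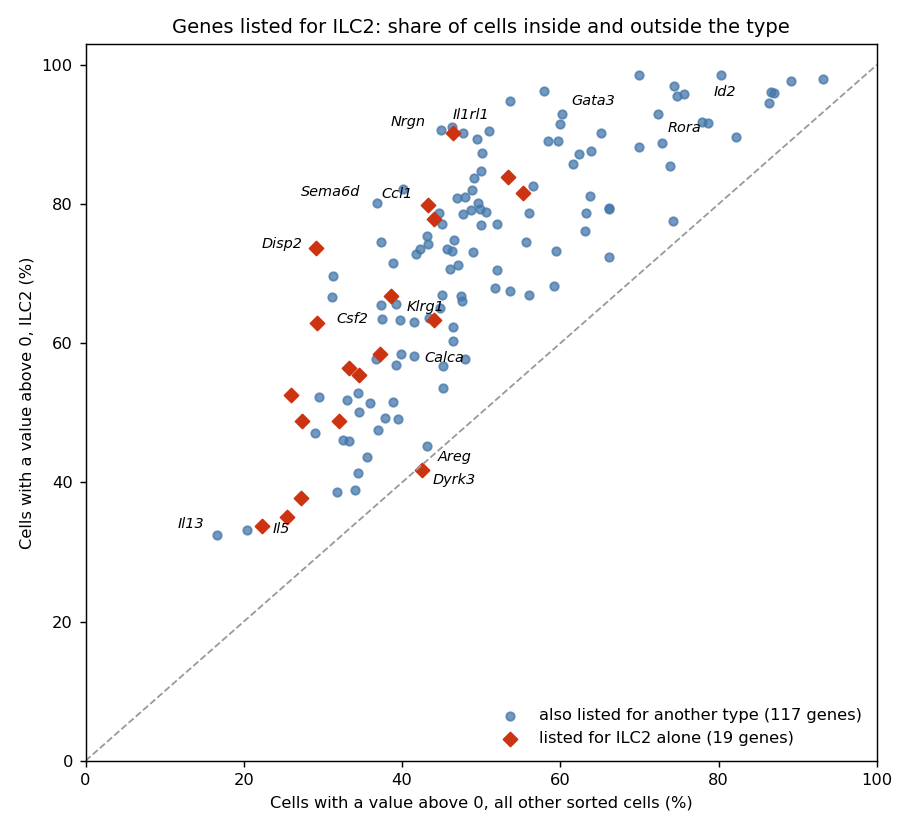
Share of ILC2 above 0 (vertical axis, %) against the share in all other sorted cells (horizontal axis, %), 1 point per gene for the 136 genes listed for ILC2. Red diamonds are the 19 genes listed for no other type, and the dashed line marks equal shares. All points but Dyrk3 lie above the line, and Il5 and Il13 sit at the lower left with shares in ILC2 of 33.7 and 32.4%.

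Il1rl1, Gata3 and Il5, known markers of ILC2s, were listed for the type. The authors named the types from such marker lists, so neither these listings nor the markers of other cells below are an independent check of the label. Il1rl1 had a value above 0 in 90.2% of ILC2 and 47.7% of all other cells. It was also listed for gdT_TypeII (95.3%) and ILC2_2 (85.8%), and in the types that did not list it the mean share was 45.0%. Il1rl1 encodes the protein on which all the cells were gated, so its share outside ILC2 is a share among cells sorted as ST2-positive. Gata3, the master transcription factor of type 2 lymphocytes, was above 0 in 93.0% of ILC2 and 60.2% of other cells, and its other listing was gdT_TypeII with 97.6%. Il5, the gene of the cytokine IL-5, was above 0 in 33.7% against 22.3%. Il5 was listed for ILC2 and no other type, whereas Il1rl1 and Gata3 were highest by share in gdT_TypeII.

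Genes marking other cell types were nearly missing from the list. Of 71 such genes in 12 lists, 56 were listed for some type and 1, Trdv4, for ILC2 (1.79% of the 56, beside 8.10% of all listed genes). No member of the T cell, B cell, plasma cell, basophil, NK cell and ILC1, ILC3, macrophage, endothelium or proliferation lists was listed for ILC2, and no hepatocyte or lung epithelium marker was listed for any type. Trdv4, a variable segment of the T cell receptor delta locus, was above 0 in 57.8% of ILC2 and 36.7% of other cells, below the 91.4% of gdT_TypeIII_CD163l1 and the 61.8% of ILC2_2. Of the genes of the gate, Il7r, which encodes CD127, was listed for no type, and Thy1 for 6 types without ILC2. Genes of proteins that the sort excluded were above 0 in many of the sorted cells by this table, with Cd3e, listed for 9 types, in 83.5%, Trbc2 in 91.4%, Ly6c2 in 70.2% and Itgam, which encodes CD11b, in 45.9%. A listing requires a higher average than in the other cells, so a missing listing says nothing of the level within ILC2.

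The sequences around the transcription starts are shown for the markers Gata3, Il1rl1 and Il5 and for the cytokine gene Il13. They were chosen since the list pairs a GATA factor with the genes that define the type. Each window runs from 250 bases before to 50 bases after a start annotated by RefSeq (mouse build GRCm38.p6), written 5′ to 3′ in the direction of the gene. Capitals mark each GATA word searched for on either strand, which is the core GATA preceded by adenine or thymine and followed by adenine or guanine, so that a word on the opposite strand reads with the core TATC.
Gata3 chr2:9878551-9878850 (minus strand): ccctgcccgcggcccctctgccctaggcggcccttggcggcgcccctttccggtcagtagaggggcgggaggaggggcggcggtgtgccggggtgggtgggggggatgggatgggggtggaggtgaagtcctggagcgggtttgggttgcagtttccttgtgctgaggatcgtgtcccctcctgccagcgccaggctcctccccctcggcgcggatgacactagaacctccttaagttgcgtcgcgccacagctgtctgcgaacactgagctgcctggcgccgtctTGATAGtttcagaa
Il1rl1 chr1:40429320-40429619 (plus strand): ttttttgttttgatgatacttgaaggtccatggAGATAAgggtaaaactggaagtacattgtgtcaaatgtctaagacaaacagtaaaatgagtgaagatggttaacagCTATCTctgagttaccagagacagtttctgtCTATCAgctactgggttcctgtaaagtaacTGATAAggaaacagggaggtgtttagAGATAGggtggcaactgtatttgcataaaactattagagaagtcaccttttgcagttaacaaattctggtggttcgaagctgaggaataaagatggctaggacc
Il5 chr11:53720544-53720843 (plus strand): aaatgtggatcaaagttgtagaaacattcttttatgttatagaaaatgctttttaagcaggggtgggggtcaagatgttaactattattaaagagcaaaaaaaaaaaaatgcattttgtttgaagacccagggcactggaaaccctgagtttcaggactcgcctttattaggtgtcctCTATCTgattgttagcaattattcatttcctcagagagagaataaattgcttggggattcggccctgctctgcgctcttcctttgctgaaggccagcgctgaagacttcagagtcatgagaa
Il13 chr11:53634653-53634952 (minus strand): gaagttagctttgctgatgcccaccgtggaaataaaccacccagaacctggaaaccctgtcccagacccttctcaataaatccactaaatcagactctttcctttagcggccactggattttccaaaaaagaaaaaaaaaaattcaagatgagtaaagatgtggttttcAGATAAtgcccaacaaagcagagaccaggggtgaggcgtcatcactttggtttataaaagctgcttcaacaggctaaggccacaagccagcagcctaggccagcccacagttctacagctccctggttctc
The Il1rl1 window shown held 5 such words, the windows of Gata3, Il5 and Il13 held 1 each, and a window at a second Il1rl1 start (chr1:40439379-40439678) held 1. The word of the Gata3 window lies in the 50 bases after the start. Across the list, 28 of 147 windows of 104 genes (19.05%) held at least 1 word, against 29.76% of all 32851 windows in the table. The ILC2 windows were also richer in G and C, with a median of 58.67% against 52.67%, and the part of base composition in the lower share of these words was not tested. A match gives letters only and no evidence of binding.

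Receptors for cytokines and lipid mediators were 5 of the 21 genes in that list, of 9 listed for any type. Besides Il1rl1 these were Il17rb, Il2ra, Ltb4r1 and Cysltr1. Ltb4r1, a high-affinity receptor for leukotriene B4, had the second largest difference of the whole list, with 91.1% of ILC2 and 46.3% of other cells, and ILC3 (88.8%) and gdT_TypeIII_CD163l1 (88.7%) came close to it. Cysltr1, a receptor for cysteinyl leukotrienes, was above 0 in 73.5% against 42.3%. Il2ra, the alpha chain of the IL-2 receptor, was above 0 in 81.0% against 47.9%, but ILC1_ILC3 (90.7%), gdT_TypeII (87.6%) and gdT_TypeIII_CD163l1 (86.6%) were higher. Il17rb, a subunit of the IL-25 receptor, reached 51.8% against 33.1%, nearly the same as ILC3 at 51.6%. Il18r1, Il2rb, Il1r1 and Il1r2 were listed for other types and not for ILC2.

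Among 20 transcription factors, 14 were listed for some type and 6 for ILC2. Id2, an inhibitor of E proteins required by all innate lymphoid cells, was the most widespread member of the whole ILC2 list at 98.6% against 80.3%. Rora was above 0 in 93.0% against 72.4%, Bhlhe40 in 88.2% against 70.0%, Maf in 82.6% against 56.5% and Ahr in 70.6% against 46.1%. None of these separated ILC2 from the other innate types by share: Rora was 97.8% and Id2 98.9% in ILC1_ILC3, and Maf 97.5% in gdT_TypeIII_CD163l1. Tcf7, Lef1, Nfil3, Tox, Tox2, Zbtb16, Irf4 and Id3 were listed for other types alone.

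Cytokines and growth factors contributed 6 of 13 genes, of 10 listed for any type, and 5 of the 6 had a share in ILC2 below the median of the list. Il2, the growth factor of T cells, was the most widespread of them by the cell type table, above 0 in 80.2% against 49.6%. It was followed by Csf2 (GM-CSF) in 65.5% against 37.4% and Lif, a cytokine of the IL-6 family, in 52.9% against 34.4%. Il2 was also listed for ILC1_ILC3 (64.5% against 62.8%) and CD4 (29.4% against 63.9%). Il13 was above 0 in 32.4% of ILC2 and 16.6% of other cells, the lowest share of any member in either column of the cell type table, and Basophil listed it at 84.8%. The order differed in the deposited table of ILC2 subclusters, where Areg was above 0 in 39.6% of all ILC2s, Il13 in 37.0%, Il5 in 28.4% and Csf2 in 20.2%. Il2 and Lif were listed for no subcluster, so no such share is known for them. Areg, which encodes amphiregulin, was above 0 in 45.2% against 43.1%, and of the 5 types that listed it ILC2 had the lowest share, below ILC2_2 (62.7%), gdT_TypeIII_CD163l1 (48.8%), gdT_TypeII (46.3%) and Treg (45.5%). Il4, Il6, Csf1 and Tnf were listed for other types, and Il9, Il10 and Il3 for none.

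The genes of a ligand and its receptor were both on the list in several cases. Calca, which encodes the neuropeptide CGRP, was above 0 in 58.1% against 41.5%, and both subunits of the CGRP receptor were members, Calcrl with 63.3% against 39.7% and Ramp1 with 95.8% against 75.6%. In the subcluster table Calca and Calcrl were above 0 in 26.8% and 25.1% of all ILC2s, far below these shares, and Ramp1 in 92.0%. These were the 3 ILC2 genes among 13 neuropeptides and neural receptors, of which 5 were listed for any type. Ccl1, a chemokine listed for no other type, was above 0 in 79.9% against 43.3%, and its receptor Ccr8 in 46.1% against 32.6%, with ILC2_2 higher at 61.8%. Il2 and Il2ra, given above, form a further such pair. The ligand genes Ccl1 and Il2 were listed for no subcluster. By the subcluster table Ccr8 was above 0 in 33.7% of all ILC2s and Il2ra in 76.4%. The pairs were picked out after the values had been seen.

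Other chemokines and trafficking receptors on the list were Cxcr6 (89.1% against 58.4%), a receptor of tissue lymphocytes, Ccr2 (87.2% against 62.3%), a receptor for CCL2, and Cxcl2 (57.8% against 47.9%), an attractant of neutrophils. Together with Ccl1 and Ccr8 they made 5 of 22 genes, of 19 listed for any type, and Cxcr6 was more widespread in the 4 other types that listed it, at 92.3 to 99.3%. None of the 12 integrins was listed for ILC2 and 7 were listed for other types, a number too small to set 0 apart from the 8.10% of all listed genes.

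Costimulatory and inhibitory receptors contributed 2 of 16 genes, of 12 listed for any type. Klrg1, an inhibitory lectin-like receptor of mature ILC2s and NK cells, was above 0 in 65.7% against 39.2%, and NK cells listed it at 54.8%. Cd81, a tetraspanin, was above 0 in 75.4% against 43.2%. Icos, Pdcd1 and Ctla4 were listed for other types and not for ILC2.

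Metabolic members included Slc7a8, a transporter of neutral amino acids, with 73.3% against 46.3%, and gdT_TypeII (82.5%) and ILC2_2 (74.5%) listed it too. Lipid and eicosanoid handling gave 2 of 17, of 11 listed for any type: Plin2, a lipid droplet protein, with 58.5% against 39.9%, and Alox5, the 5-lipoxygenase of leukotriene synthesis, with 38.6% against 31.8%.

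Of 21 immediate early genes, 17 were listed for some type and 3 for ILC2, namely Fosb (97.0% against 74.4%), Fos (94.5% against 86.4%) and Klf4 (85.7% against 61.6%). Signalling feedback gave 2 of 15 genes, of 11 listed for any type: Nfkbiz, a nuclear regulator of NF-κB, with 88.8% against 72.8%, and Cish, a suppressor of STAT5 signalling, with 77.2% against 52.0%. No heat shock gene of 10 was listed for ILC2 and 9 were listed for other types, again too few to differ from that background. Over all 12 lists of functions, 36 of the 130 genes listed for any type were listed for ILC2 (27.69%, beside 8.10% of all listed genes), and since these lists had been drawn up for ILC2 with earlier results known, the excess is no independent evidence.

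**Figure D2:**
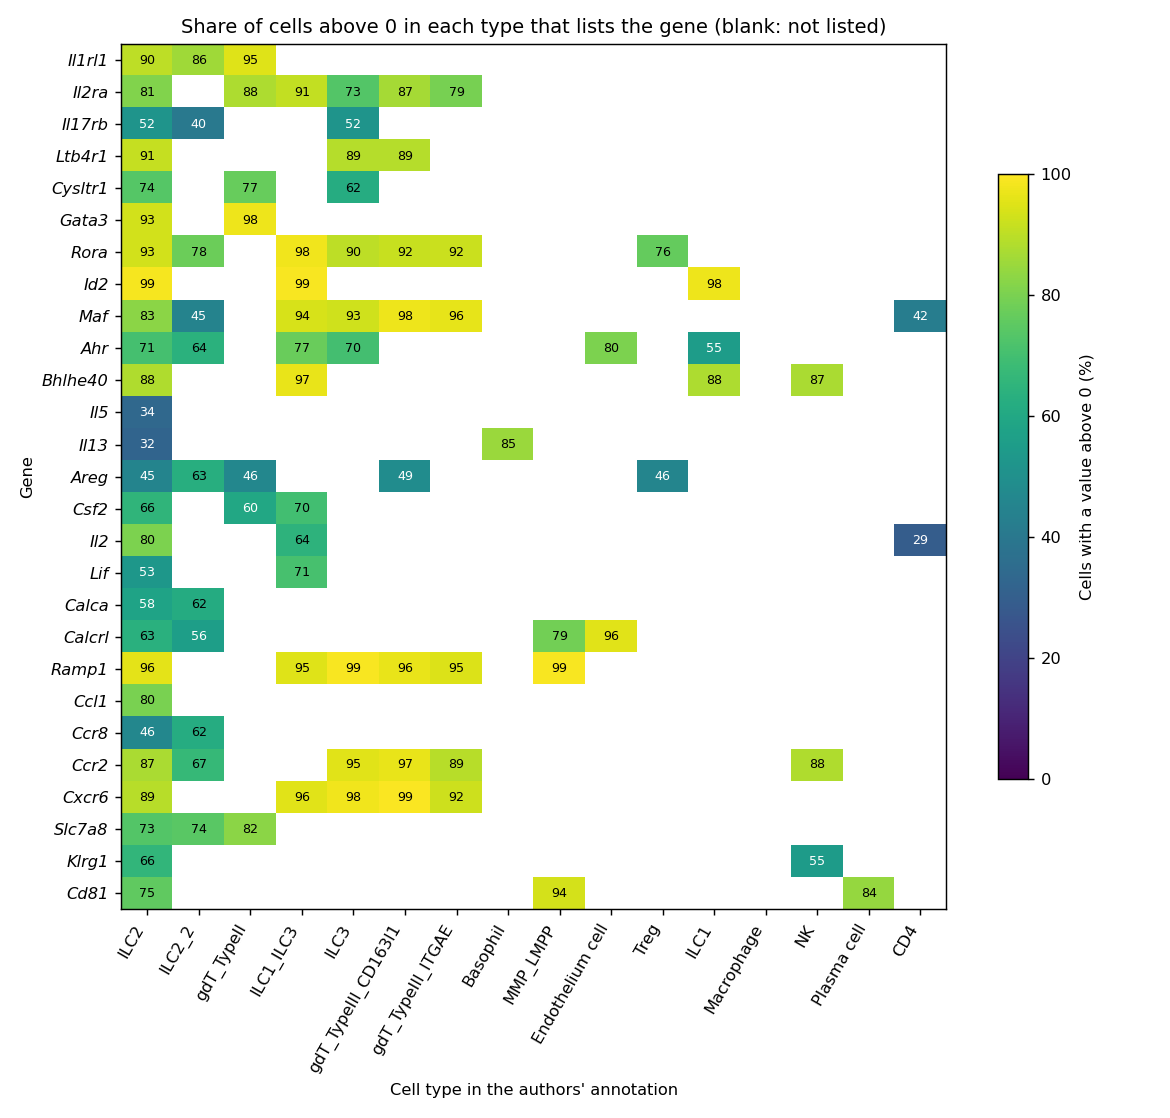
Share of cells above 0 (colour and number, %) for 27 ILC2 genes grouped by role (rows) in ILC2 and in the 15 other types that share at least 3 genes with its list (columns). Blank fields have no listing. Il5 and Ccl1 are filled for ILC2 alone, whereas Rora, Maf and Il2ra are also filled for ILC1_ILC3, ILC3 and both gdT_TypeIII types.

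The largest differences of the list belonged mostly to genes outside these groups. Nrgn, which encodes neurogranin, a calmodulin-binding protein best known from neurons, came first with 90.7% of ILC2 and 44.9% of other cells. Disp2, of the Dispatched family, followed Ltb4r1 with 73.7% against 29.1%, and then Lpcat2, an acyltransferase that makes platelet-activating factor, with 90.2% against 46.4%. Sema6d, a transmembrane semaphorin, was above 0 in 80.1% against 36.8%, and Prnp, the prion protein, in 82.1% against 40.1%. Tnfsf11, which encodes RANKL, the ligand of RANK, was above 0 in 89.3% against 49.5%. Sdc4, a heparan sulphate proteoglycan, followed with 87.4% against 50.1%, and Rgs18, a regulator of G protein signalling, with 74.5% against 37.3%. The remaining 4 of the 15 largest outside those already given were Tmem176a (94.8% against 53.7%), Tmem176b (96.3% against 57.9%), Mdfic (90.5% against 51.0%) and Asb2 (69.6% against 31.3%). Nrgn, Ltb4r1, Sema6d, Prnp, Tnfsf11 and Mdfic were more widespread in ILC2 than in any other type that listed them. The shares of most of these genes were far lower in the subcluster table, where Nrgn was above 0 in 25.7% of all ILC2s, Lpcat2 in 28.8%, Prnp in 31.8%, Sdc4 in 26.9%, Rgs18 in 16.5% and Tnfsf11 in 20.2%, so their order holds for the cell type table. Ltb4r1, at 90.5%, kept its share.

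Of the 136 genes, 19 (13.97%) were listed for ILC2 alone, 31 for 2 types, 38 for 3 and 48 for 4 or more, up to 8 types for Serpinb1a and Zfp36l1. The share of a list found for no other type was higher in Prolifelation cell (45.81%), Endothelium cell (36.78%), Basophil (21.82%) and Macrophage (16.84%). It was lower in all remaining types, with 9.5% in ILC2_2 and 4.0% in ILC1_ILC3. The number for ILC2 alone was 39 when a listing of another type counted only with a share at least 10 points above that of the other cells. Those with the largest differences among the 19 included Disp2, Lpcat2, Ccl1, Tmem158, Cntnap2, Zcchc10, C2 and Ffar2. Ffar2, a receptor for short-chain fatty acids, was above 0 in 56.4% against 33.3%. C2, a complement component, was above 0 in 52.5% against 26.0%, and Cntnap2, a neurexin-like adhesion protein, in 62.9% against 29.2%. Tmem158 and Zcchc10 reached 77.9% and 83.9% of ILC2 against 44.0% and 53.4% of other cells. The genes listed for ILC2 alone had a median difference of 23.1 points, and the 117 shared genes of 20.8. Of those 117 genes, ILC2 had the highest share of all listing types for 23.

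At the other end, Dyrk3, a protein kinase, was listed for ILC2 alone although 41.8% of ILC2 and 42.5% of other cells had a value above 0. The next smallest differences belonged to Areg with 2.1 points, Cited2, a transcriptional co-regulator, with 3.4, and Eif5a, a translation factor, and Dst, a cytoskeletal linker, with 4.8 each. A lower share inside the type than outside occurred for this 1 gene of 136 in ILC2, for 0 of 28 in gdT_TypeII, 3 of 197 in gdT_TypeIII_ITGAE and 6 of 225 in ILC1_ILC3, and for 106 of 200 in ILC2_2. It was also frequent in CD4 (100 of 131), gdT_Naive (111 of 149), CD8_Effector (57 of 94), CD8_Naive (113 of 198) and Treg (77 of 150).

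The list overlapped most with those of ILC2_2, ILC1_ILC3, ILC3 and the gdT_TypeIII types. Since the ILC2 list holds 8.10% of all listed genes, the shared part of another type's list is read against that share. ILC2_2 shared 51 genes, which was 37.5% of the ILC2 list and 25.5% of its own, and ILC1_ILC3 shared 42 (30.88% and 18.67%) and ILC3 36 (26.47% and 23.53%), followed by gdT_TypeIII_CD163l1 with 31 (22.79% and 16.23%) and gdT_TypeIII_ITGAE with 29 (21.32% and 14.72%). These 5 types and gdT_TypeII were above the background share. The list of gdT_TypeII was short, and 25 of its 28 genes (89.29%) were also ILC2 genes, including Il1rl1, Gata3, Il2ra, Csf2, Areg, Tnfsf11, Prnp and Cysltr1. Its 3 further genes were Ccr7, Klf6 and Nr4a2. Over those 25 genes the median share was 78.7% in ILC2 and 76.8% in gdT_TypeII, and ILC2 was the higher for 10. ILC2_2 and ILC1_ILC3 differed from this in opposite ways: ILC2 was the higher in share for 37 of the 51 genes shared with ILC2_2 (medians 73.1 and 65.5%) and for 6 of the 42 shared with ILC1_ILC3 (81.1 and 89.1%). Basophil shared 24 genes, which was 17.65% of the ILC2 list and, at 8.73% of its own, near the background. The other types lay below it: Treg shared 10 genes (6.67% of its list), ILC1 8 (5.52%), MMP_LMPP 19 (4.71%), Endothelium cell 18 (4.53%), NK 6 (3.05%), Plasma cell 6 (2.94%), Macrophage 8 (2.75%), CD4 3 (2.29%) and Prolifelation cell (spelled as deposited) 1 (0.19%). CD8_Effector, CD8_Naive, gdT_Naive and gdT_TypeI, with lists of 94, 198, 149 and 145 genes, shared none. When only listings with a share at least 10 points above the other cells were counted in both types, ILC2_2 shared 21 genes, ILC1_ILC3 36 and gdT_TypeII 18, so that ILC1_ILC3 came first. Under the same minimum ILC3 shared 20, both gdT_TypeIII types 17 each, NK 3, and Treg and CD4 none. The types were defined by clustering the same values, so none of these differences was tested.

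**Figure D3:**
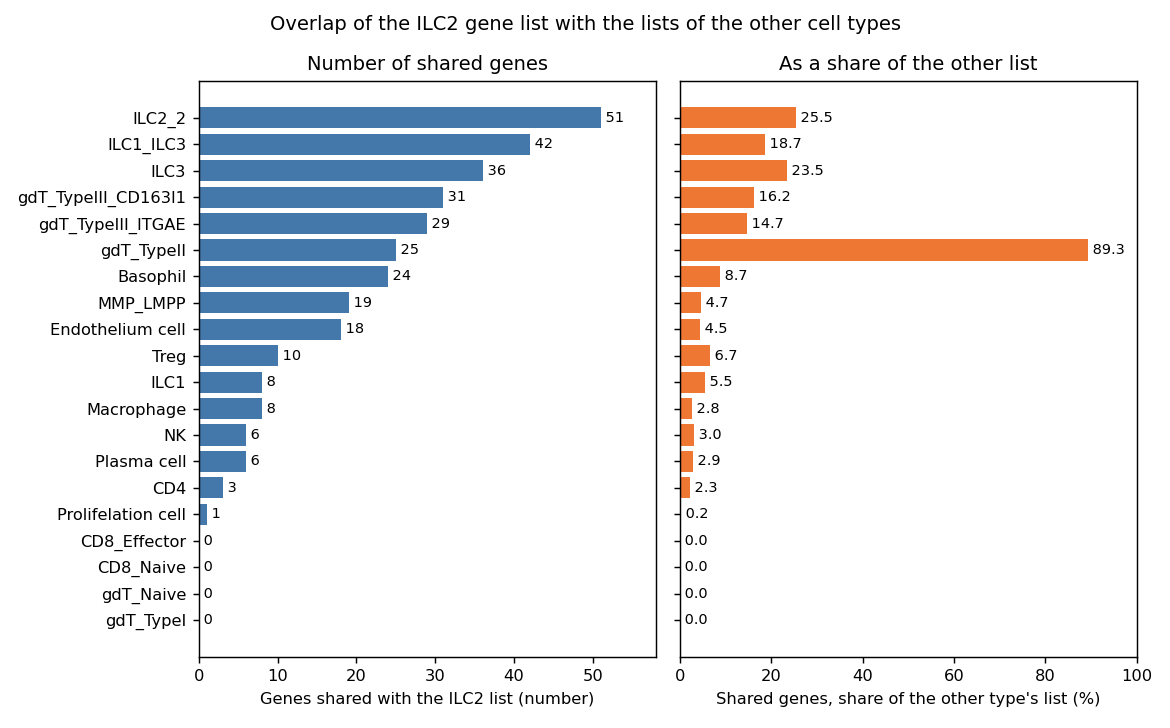
Genes shared between the ILC2 list and the list of each of the other 20 types, as a number (left) and as a percentage of the other type's list (right). ILC2_2 shares the most genes, 51, and gdT_TypeII the largest part of its own list, 89.3%.

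How the ILC2 genes varied among ILC2s was read from a second deposited table, in which the authors divided ILC2s into 10 subclusters numbered 0 to 9. Of the 136 genes, 116 (85.29%) were listed for at least 1 subcluster, against 48.8% of all genes of the cell type table. The most were listed for subclusters 0 and 3, which held 27.3% and 14.9% of ILC2s by the least-squares sizes: 94 genes (69.12%) were listed for 0 or 3, against 9.77% of all genes of the cell type table. Subcluster 9, with 0.611% of ILC2s, also listed many, 30 genes (22.06%, against 3.93%). Subclusters 1, 2, 4, 6 and 8, a grouping made with earlier results known, together listed 29 (21.32%), against 36.5%. They were not alike: subclusters 4 (5.15% against 26.86%) and 1 (5.15% against 6.85%) were below the share of all genes, and 2 (7.35% against 3.51%), 6 (8.82% against 4.47%) and 8 (11.03% against 6.73%) above it. Of the ILC2 genes, 81 were listed for 0 or 3 and none of those 5 subclusters, 16 for the reverse, and 13 for both (59.56, 11.76 and 9.56% of the list). Over all genes of the cell type table the same 3 shares were 7.5, 34.19 and 2.26%. Both tables come from overlapping cells, so these counts are a description.

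The genes listed for 0 or 3 held Il1rl1 and Gata3 as well as many of the leading genes. Il1rl1 was above 0 in 97.0% of subcluster 3 and Gata3 in 94.8%, where all ILC2s of the table stood at 89.2% and 90.9%. Larger contrasts came from Stab2, a scavenger receptor, in 68.4% of subcluster 0 against 21.7% of other ILC2s, from Prnp (59.1% against 21.5%), Lpcat2 (56.3% against 18.4%) and Nrgn (52.4% against 15.7%). In subcluster 3, Hs3st1, a heparan sulphate sulphotransferase, was above 0 in 75.6% against 36.2%, and Calca in 55.2% against 21.8%.

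The 16 genes listed for those 5 subclusters and not for 0 or 3 included Il13, Klrg1, Id2, Maf, Ltb4r1, Plin2 and Rbpj, the nuclear effector of Notch. Klrg1 was above 0 in 92.1% of subcluster 1 against 63.1% of other ILC2s, and Rbpj in 96.7% of subcluster 6 against 76.2%. Il13 was listed for 5 subclusters, the highest being 8 with 69.7%. Il5 was listed for neither of these groups but for subclusters 7 (46.5% against 28.1%) and 9 (42.0% against 28.3%). Subcluster 7 also listed Hes1, a Notch target gene, in 53.0% of its cells against 12.0%.

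Subcluster 5 listed 19 ILC2 genes (13.97% of the list, against 7.27% of all genes of the cell type table), and for all 19 the share of cells was lower inside the subcluster than in other ILC2s, with a median difference of -20.2 points. The same held for 978 of all 1000 listings of this subcluster, so this direction was general among the listings of the subcluster. Trdv4 was among them, in 9.9% of subcluster 5 against 26.6% of other ILC2s. Of the 20 genes listed for no subcluster, 6 were genes listed for ILC2 alone, among them Disp2, Ccl1, Cntnap2 and Tmem158, and Il2, Lif and Sema6d were also in this group.

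**Figure D4:**
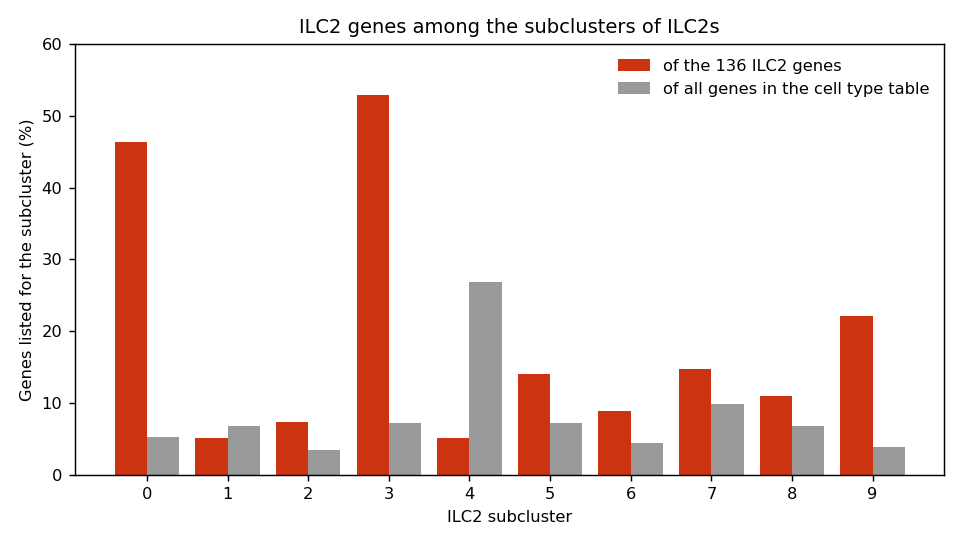
Percentage of the 136 ILC2 genes (red) and of all 1679 genes of the cell type table (grey) that are listed for each of the 10 ILC2 subclusters. The red bars reach 46.3% at subcluster 0 and 52.9% at subcluster 3, and fall below the grey bars at subclusters 1 and 4.

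The tables did not give the same share for the same gene in ILC2s. For the 116 genes in both, the cell type table had a median share of 75.15% and the subcluster table of 43.26%, and 112 were higher in the former. The gap reached 69.08 points for Tnfsf11 (89.3% and 20.2%), and Bmp2 stood at 80.8% and 13.3%, Klf4 at 85.7% and 21.9%, and Csf2 at 65.5% and 20.2%. Several widespread genes had close values, among them Id2 (98.6% and 97.4%), Gata3 (93.0% and 90.9%), Il1rl1 (90.2% and 89.2%) and Ltb4r1 (91.1% and 90.5%). Genes lower in the cell type table included Il13 (32.4% and 37.0%), Klrg1 (65.7% and 68.9%) and Plin2 (58.5% and 59.2%). Whether the subcluster table also holds the cells of ILC2_2 is not given in the sources used here. ILC2_2 made up 3.95% of ILC2 and ILC2_2 together by the solved sizes. The cell type table rests on 2000 features. The study's methods name a merged matrix and no integration step, and which values gave its shares is not given in the sources used here, so they are called shares above 0 and not shares of cells with a transcript. By the subcluster table, T cell receptor and T cell genes in ILC2s ranged from Cd3e at 5.76% and Trdc at 7.72% to Trbc1 at 79.6% and Trbc2 at 81.8%, with Cd3g at 32.9%. By the cell type table the mean share in the types that did not list the gene, ILC2 being the largest of them, was 77.5% for Cd3e, 67.2% for Trdc and 79.5% for Cd3g. A share above 0 in that table is therefore not read here as expression, for the ILC2 genes either. The part of T cell genes in the shares of ILC2 genes was not tested.

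**Figure D5:**
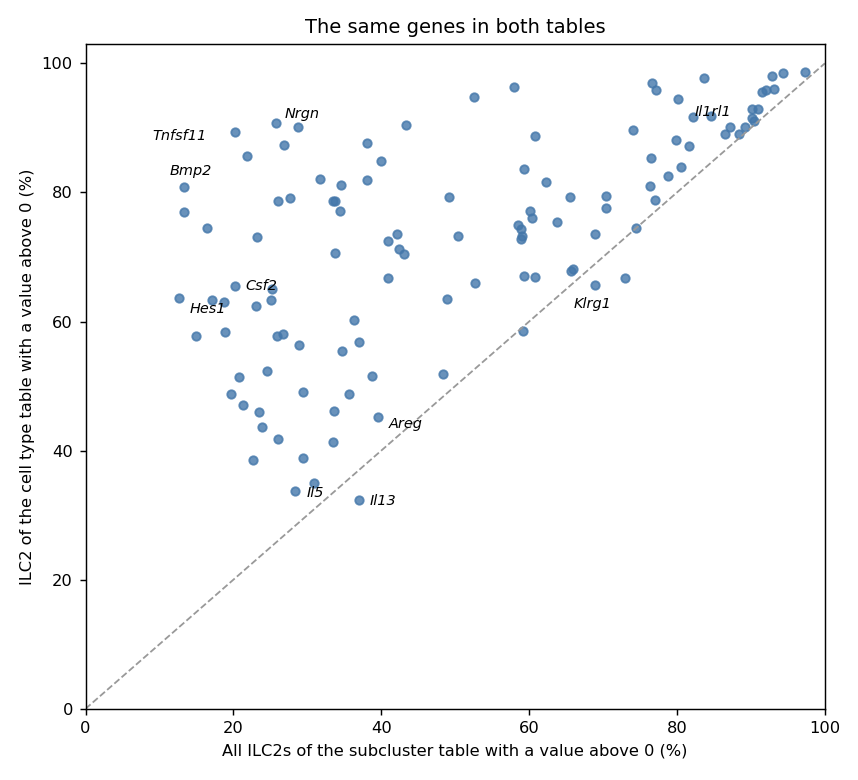
Share of ILC2 above 0 by the cell type table (vertical axis, %) against that of all ILC2s by the subcluster table (horizontal axis, %), 1 point for each of the 116 genes in both, with equal shares as the dashed line. Most points lie above the line, farthest for Tnfsf11 and Bmp2, while Il13 and Klrg1 lie below it.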

How the data were processed

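Single-cell RNA libraries of sorted liver and lung cells (4 groups, 1 library each) were aligned to mm10 with Cell Ranger and analysed by the authors in Seurat, with normalization, clustering and manual naming of types, after doublets and dead cells had been removed by flow cytometry and cells with few detected genes left out. The deposited tables list marker genes of 21 cell types and of 10 ILC2 subclusters, with fold changes, p-values, and the share of cells above 0 inside and outside each cluster. The p-values and adjusted p-values of the deposited tables served only to find the number of features tested (2000 and 14354), and the authors' fold changes were not used. Shares carry 3 decimals and no cell numbers for each type, and the depth is unknown. Every listing of the cell type table had at least 25.2% of cells on one side. The subcluster table reached slightly lower, as for Npc1 in subcluster 0 (25.0% against 16.3%).

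From the shares were computed differences, overlaps, sizes of types by least squares (numpy 2.4.6, tested on simulated data), and shares over all ILC2s. Positions are from GENCODE M21 and RefSeq. No test was run, since the types were defined from the same cells and each group had 1 library. Genes named were the markers of the type, the 15 largest differences, the 10 largest among genes listed for ILC2 alone, the 5 smallest, and the ILC2 genes found in 24 lists (262 genes); a few others were chosen after their values were seen, and 2 genes are not reported here. Members and lists were chosen with earlier results of these data known. Alternatives changed which listings counted, the genes and constraint of the size fit, and the motif and window.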

Additional observations from a re-analysis of the deposited data

How the results depend on the processing

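The number of genes listed for ILC2 alone was 39 in place of 19 when a listing of another type counted only with a share at least 10 points above the other cells, and 27 when ILC2_2 was not counted. The share of ILC2 promoter windows with a GATA word was 12.24% when only the 150 bases before the start were read, where all windows had 16.0%, and 18.37% against 25.41% for GATAA. Of the 20 overlaps with other types, 7 moved by over 1.5 times under the 10-point minimum. The number of ILC2 genes stayed between 117 and 136, the solved size between 43.2203 and 43.2276%, and the genes listed for a subcluster at 81 or more. No paired analysis was possible because the tables pool the 4 libraries, 1 in a group. Counting error was not computed, although the study gives the total numbers of sorted cells and of ILC2s.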

Other observations

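Several ILC2 genes lay next to each other in the genome (RefSeq, GRCm38.p6; 133 of 136 genes had a position there). Il13, Rad50 and Il5 are consecutive protein-coding genes on chromosome 11, with gaps of 14817 and 13475 bases, and all 3 were listed for ILC2. Rad50, a DNA repair gene that lies in the type 2 cytokine locus, was above 0 in 67.5% of ILC2 and 53.7% of other cells. Il4, the further cytokine gene of this locus, was listed for Basophil (75.2%) and, among ILC2s, for subcluster 7, and not for ILC2.

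Other neighbours were Tmem176a and Tmem176b on chromosome 6, which overlap on opposite strands, and Il17rb and Chdh on chromosome 14, which lie 5 bases apart on opposite strands. Chdh, which encodes choline dehydrogenase, was above 0 in 37.7% of ILC2 and 27.2% of other cells. How reads were assigned between overlapping or adjoining genes is not given in the sources used here.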
